A study of Homo sapiens with 6 samples.

Results

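The proteasome subunit genes were the protein-coding genes whose whole symbol is PSMA, PSMB, PSMC, PSMD, PSME or PSMG followed by a number, pseudogenes left out. The rule found 47 genes among the 26347 rows of the count table. A looser reading would add 2 genes with longer symbols, PSMC3IP and PSME3IP1, which encode partner proteins and not subunits, and these were left out. The 47 were sorted by role into the alpha ring (8 genes), the constitutive beta ring (8), the immunoproteasome (5), the ATPases of the cap base (6), the non-ATPase cap subunits (11), assembly factors (7) and other activators (2). Total RNA was extracted and sequenced from the established leukaemia line THP-1, which resembles monocytes, at 24 h after cells had received a miR-125a-5p mimic (3 libraries) or a negative control microRNA mimic (3 libraries). Both groups were grown in RPMI medium with fetal bovine serum and no other allele or agent is named, and a mimic is a synthetic double-stranded copy of a microRNA. No differentiation step is named for either group, although the title of the study speaks of macrophages. The labels do not say whether the libraries came from separate cultures, so p-values here rest on the spread among 3 libraries a group, and that spread may be purely technical.

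The proteasome is the barrel-shaped protease that degrades ubiquitin-tagged proteins in the cytosol and nucleus. Its core is built of stacked alpha and beta rings, and the proteolytic sites lie inside on the beta subunits encoded by PSMB5, PSMB6 and PSMB7. A regulatory cap binds the ubiquitin chain, removes it, unfolds the substrate with a ring of ATPases and feeds it into the barrel. In leukocytes and in cells exposed to interferon-gamma, PSMB8, PSMB9 and PSMB10 take the places of PSMB5, PSMB6 and PSMB7 in newly built particles, and the activator made of PSME1 and PSME2 can dock in place of the cap. These immunoproteasomes favour the release of peptides suited to class I antigen presentation.

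The libraries held 8256149 to 10257791 counts. Monocytic marker genes were present in all 6 libraries (10 of 10 listed genes, summed level 2469 to 2592 CPM in miR-125a-5p and 2504 to 2683 CPM in control libraries), although MPO lay between 0.594 and 4.87 CPM. CPM is the count divided by the library size on the usual per-million scale, with TMM scaling factors for all values except marker levels and detection floors. The summed T-cell and epithelial lists stayed at or below 1.07 CPM in every library, with CD3E and KRT18 at 0. B-cell markers summed to 1.603 to 4.72 and fibroblast markers to 0.774 to 3.56 CPM over the 6 libraries. Control library 1 stood apart along principal component 1 of the log2 CPM (25% of variance), with a score of -38.2 against 1.15 to 16.3 for the other 5. Values without control library 1 are given beside single genes picked by the rule stated below whose log2 fold change it moves by over 1.5 times. Along component 2 (21.2%) miR-125a-5p library 3 stood apart, with a score of 31.1 against -21.5 to 5.2 for the other 5. In bulk samples fewer cells of a type and less RNA per cell cannot be told apart.

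The microRNA and the matches to its seed in proteasome transcripts, within the untranslated stretch after the coding region (3′ UTR), are shown first, because microRNAs are known to act through such sites. The mature microRNA from RefSeq (GRCh38.p14, chr19:51693268-51693291, plus strand) has its seed, bases 2 to 8, in capitals. The stretches below it come from GENCODE 29 on GRCh38 and are the 3 full 8-base matches found in proteasome genes, with the match in capitals.
hsa-miR-125a-5p: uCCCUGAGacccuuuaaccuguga
PSMB8: gtcttggccgaCTCAGGGAcctaagccacg
PSMD9: gtaaaatggttCTCAGGGAttcctgccaat
PSMG3: ccagacacccaCTCAGGGActcaagtctca
The PSMB8 match lies at chr6:32840903-32840910 on the minus strand, in the 3′ UTR of the last of 6 exons, 49 bases into a 3′ UTR of 242 bases. The PSMD9 match lies at chr12:121917454-121917461 on the plus strand, in exon 6 of 6, 1143 bases into a 3′ UTR of 1986 bases. The PSMG3 match lies at chr7:1567634-1567641 on the minus strand, in exon 2 of 2, 57 bases into a 3′ UTR of 368 bases.

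The first question was which proteasome genes these monocytic cells express and at what level. Of the 47 genes, 45 had enough counts to be tested. PSMA8, a testis-specific alpha subunit, held 0 counts in every library except control library 1, which held 3. PSMB11, the beta subunit of the thymic cortex, held 0 counts in all 6 libraries, which allows up to 0.293 to 0.363 CPM per library when 3 counts are taken as the limit (counting error only). Most of the other members were abundant for their length: 42 of the 45 lay above the median tested gene by the union of exons, and PSMC6, PSMD9 and PSMG4 lay below it. With CPM divided by the length of the principal transcript in kilobases, their median lay at percentile 90.4 of all tested genes, and 24 of the 45 were in the top 10%.

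**Figure D1:**
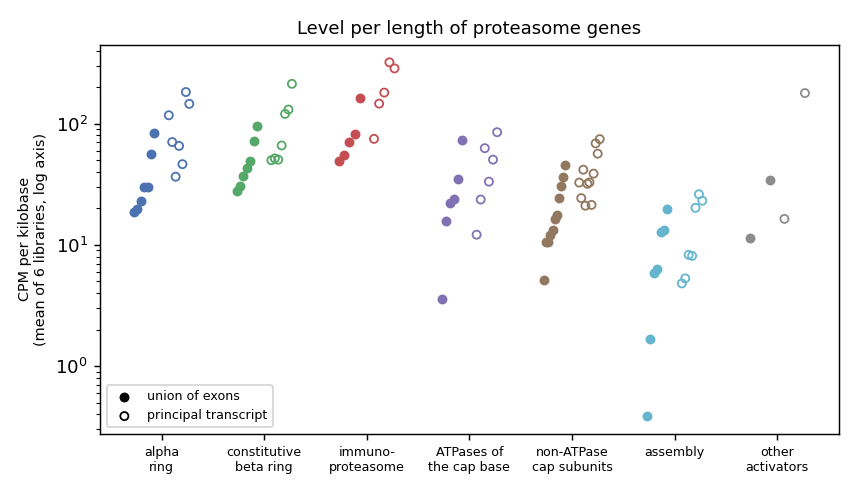
Level per length of each tested proteasome gene (log axis), as CPM per kilobase averaged over the 6 libraries, by class. Filled points divide by the union of annotated exons and open points by the principal transcript; the immunoproteasome has the highest class median with either length and assembly genes the lowest.

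By the union of annotated exons, the immunoproteasome genes had the highest median level per length, 70.8 CPM per kilobase. The constitutive beta ring followed at 43.3, the alpha ring at 29.9, the ATPases at 23.0, the other activators at 23.0, the non-ATPase cap subunits at 16.4 and the assembly factors at 6.31. Dividing by the principal transcript raised all classes (to 180.5, 66.1, 70.5, 41.9, 97.6, 32.8 and 8.28 CPM per kilobase, in the same order of classes), the alpha and beta rings changed places, and the other activators came second. The assembly factors, which act on each particle only while it is built, were lowest with either length.

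Within the core the subunits are present in equal numbers in the particle, but their transcripts were not equally abundant. Over the 14 tested core genes the highest level per length was 5.14 times the lowest by the union of exons and 5.84 times by the principal transcript. PSMB4, a non-catalytic beta subunit, was the most abundant core transcript with either length (95.3 and 213 CPM per kilobase). PSMA6 was the least abundant by the union of exons (18.5 CPM per kilobase) and PSMA4 by the principal transcript (36.5 CPM per kilobase), so the lower end depended on the length used. In the cap the ATPase PSMC2 stood highest (73.2 CPM per kilobase by the union of exons) and PSMC6 lowest (3.55). Pseudogenes exist for many members (52 in the gene table, 0 with a row in the counts), and the treatment of reads shared with them is not given in the sources used here. The level of a member such as PSMC1 (13 pseudogenes), PSME2 (6), PSMA6 (4), or PSMC6, PSMA2 and PSMD10 (3 each) is therefore uncertain.

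The immunoproteasome subunits were set against the constitutive subunits they replace, each pair on the level per length by the union of exons. PSMB8 stood at 1.34, 1.49 and 1.16 times PSMB5 in miR-125a-5p libraries 1 to 3, against 1.59, 1.53 and 1.95 times in control libraries 1 to 3. The groups did not overlap, but the highest miR-125a-5p ratio, 1.49, lay close below the lowest control ratio, 1.53. The mean was 1.33 ± 0.163 after the miR-125a-5p mimic and 1.69 ± 0.229 after the control mimic (SD, n = 3 each). The highest control ratio came from library 3, whose PSMB5 level was the lowest of the 6 (48.3 CPM). Without that library the difference of the mean log2 ratios was -0.24 in place of -0.345. PSMB9 exceeded PSMB6 in every library, 2.78, 2.65 and 1.92 times in miR-125a-5p libraries and 4.17, 2.90 and 2.20 times in control libraries, and here the groups overlapped. PSMB10 was below PSMB7 in every library, at 0.585, 0.715 and 0.796 times in miR-125a-5p libraries and 0.665, 0.709 and 0.663 times in control libraries. Dividing by the principal transcripts kept these orders, with mean ratios of 2.60 and 3.31 for PSMB8 to PSMB5, 5.66 and 7.15 for PSMB9 to PSMB6, and 0.583 and 0.567 for PSMB10 to PSMB7, miR-125a-5p and control libraries in turn. These ratios describe the 6 libraries and carry no test.

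The second question was whether the miR-125a-5p mimic changed proteasome transcripts. None of the 45 tested genes passed the quasi-likelihood test of edgeR after Benjamini-Hochberg correction across the 14731 tested genes, where 0% of genes were called higher and 0.0272% lower. The smallest adjusted p among members in that edgeR fit was 0.658, for PSMA2, and DESeq2, limma voom and edgeR's likelihood ratio test also called 0 members in either direction. At an unadjusted edgeR p under 0.05 there were 3 members on the higher side (6.67%, against 2.69% of all tested genes) and 1 on the lower side (2.22%, against 3.22%). In 1 member every miR-125a-5p library lay above every control library (5.31% of all tested genes), and in 1 every one lay below (5.9%). The SE of a member's log2 fold change was 0.089 to 0.34 with a median of 0.11.

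Of the 45 log2 fold changes (miR-125a-5p over control) 30 were positive, with a median of 0.058, against 50.2% positive and a median of 0.0011 over all tested genes. By sign, 29 of the 40 members outside the immunoproteasome were positive (median 0.064), against 1 of the 5 immunoproteasome genes (median -0.085). Both other activators, PSME3 and PSME4, are counted among the 40 and were negative as well. Without control library 1, PSMB9 and PSME2 were positive (0.019 and 0.068) and the immunoproteasome median was 0.019. The members were measured in the same 6 libraries, so these counts are not independent observations.

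**Figure D2:**
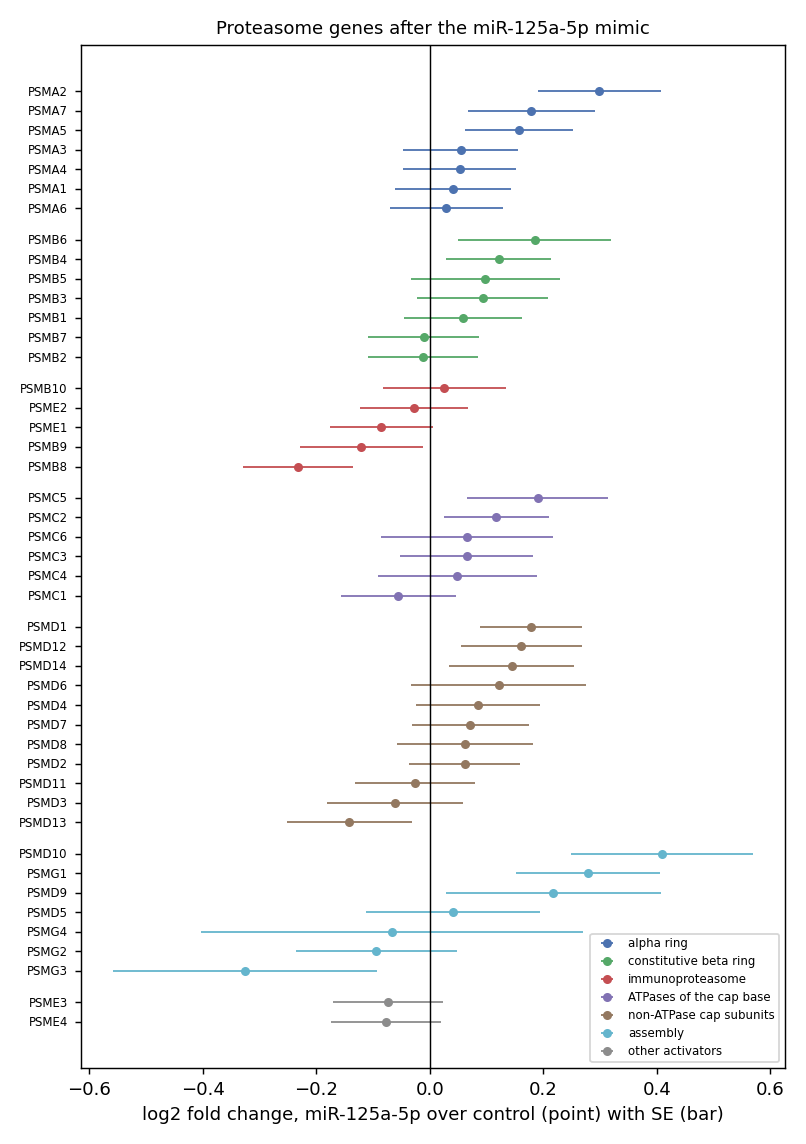
Log2 fold change of the 45 tested proteasome genes, miR-125a-5p over control libraries, with the SE of edgeR's quasi-likelihood fit as bars and genes grouped by class. All 7 alpha ring genes lie right of 0, 4 of the 5 immunoproteasome genes lie left of it, and assembly genes spread from -0.33 to 0.41.

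In the alpha ring, which forms the gate of the barrel, all 7 tested genes had positive log2 fold changes between 0.03 and 0.30 (median 0.054, or 0.10 without control library 1). PSMA2 had the smallest p of all members. Its levels were 128, 118 and 101 CPM in miR-125a-5p libraries, against 104, 90.7 and 87.9 CPM in control libraries. The lowest miR-125a-5p library therefore lay below the highest control library. The means were 116 ± 13.7 CPM after the miR-125a-5p mimic and 94.0 ± 8.32 CPM after the control mimic (SD, n = 3 each), a log2 fold change of 0.30 (SE 0.11, unadjusted p = 0.0112, adjusted p = 0.658 by edgeR). PSMA5 averaged 182 ± 15.3 CPM in miR-125a-5p libraries and 163 ± 5.28 CPM in control libraries (log2 fold change 0.16, edgeR adjusted p = 0.884), and its log2 fold change was 0.097 without miR-125a-5p library 2. The other 5 alpha genes had log2 fold changes of 0.03 to 0.18, and whether their signs held with a library left out was not examined.

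In the constitutive beta ring 5 of 7 tested genes were positive and the median was 0.094. PSMB5, the chymotrypsin-like subunit that proteasome inhibitors such as bortezomib bind, had 67.2, 61.7 and 73.7 CPM in miR-125a-5p libraries and 71.9, 68.9 and 48.3 CPM in control libraries. Control library 3 was the lowest of the 6, and without it the log2 fold change of PSMB5 was -0.06 in place of 0.10, whereas without control library 1 it was 0.20. PSMB6, the caspase-like subunit, had 43.9, 44.7 and 52.0 CPM in miR-125a-5p libraries against 35.0, 39.9 and 48.8 CPM in control libraries (log2 fold change 0.18, SE 0.13, edgeR adjusted p = 0.905). The log2 fold change of PSMB6 was 0.074 without control library 1, 0.10 without miR-125a-5p library 3 and 0.32 without control library 3. PSMB7, the trypsin-like subunit, averaged 128 ± 9.57 CPM in miR-125a-5p libraries and 129 ± 5.01 CPM in control libraries, a log2 fold change of -0.01 with an SE of 0.10 (0.013 without control library 1). PSMB4 averaged 214 ± 10.4 CPM in miR-125a-5p and 197 ± 12.9 CPM in control libraries (log2 fold change 0.12, edgeR adjusted p = 0.913, and 0.067 without control library 1).

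**Figure D3:**
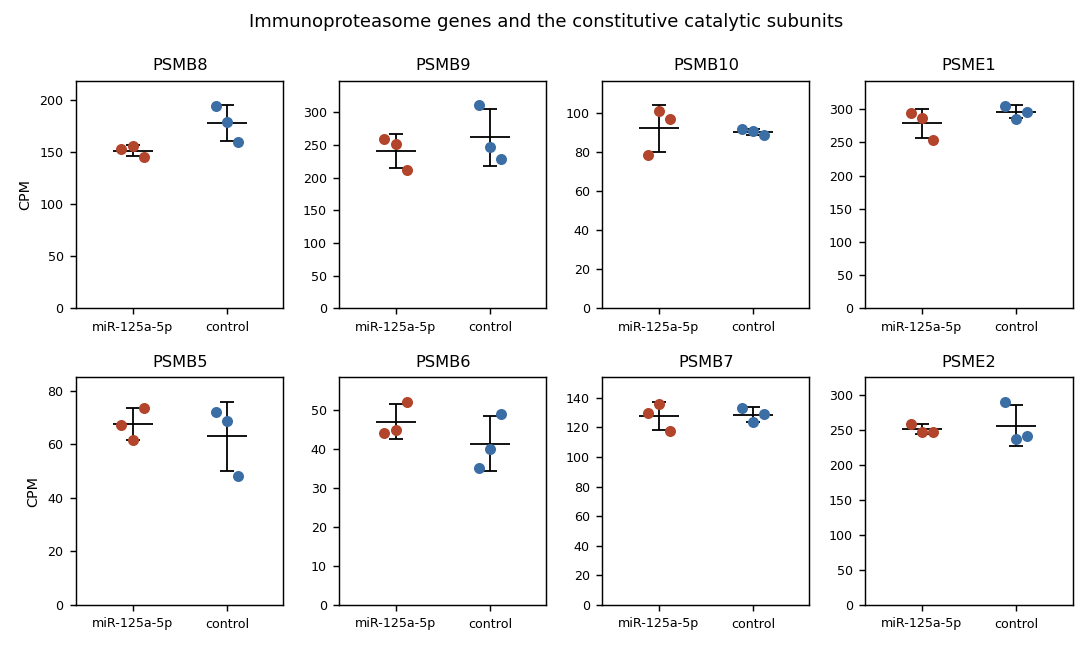
CPM of the 5 immunoproteasome genes and the 3 constitutive catalytic subunits in each library (points), with mean and SD of 3 libraries (bars), miR-125a-5p left and control right in each panel, axes from 0. PSMB8 is the 1 gene of the 8 whose groups do not overlap, with 145 to 156 CPM in miR-125a-5p libraries and 160 to 194 CPM in control libraries.

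Among the immunoproteasome genes PSMB8, the inducible counterpart of PSMB5 that carries a full 8-base seed match, had the largest difference. It had 153, 156 and 145 CPM in miR-125a-5p libraries, against 194, 179 and 160 CPM in control libraries. Every miR-125a-5p library lay below every control library. The means were 151 ± 5.44 CPM after the miR-125a-5p mimic and 178 ± 17.1 CPM after the control mimic (SD, n = 3 each). The log2 fold change was -0.23 (SE 0.10), a level 0.852 times that of control libraries, with an unadjusted p of 0.0249 and an adjusted p of 0.775 by edgeR's quasi-likelihood test. Leaving out a library gave log2 fold changes of -0.30 to -0.17, with -0.17 without control library 1.

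Counts of PSMB8 cannot be separated fully from those of PSMB8-AS1, an antisense transcript of the same locus, since the strand setting is not given in the sources used here. In GENCODE 29 the exons of PSMB8-AS1 overlap those of PSMB8 by 618 bases of 2997, those of the neighbouring TAP1 by 456 bases of 4805 and those of PSMB9 by 174 bases of 3072. PSMB8-AS1 had 121, 122 and 123 CPM in miR-125a-5p libraries and 152, 143 and 134 CPM in control libraries, again without overlap of the groups (log2 fold change -0.23, edgeR adjusted p = 0.751). Its part in the PSMB8 values was not tested.

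PSMB9, the inducible counterpart of PSMB6, had 259, 251 and 211 CPM in miR-125a-5p libraries and 310, 246 and 228 CPM in control libraries. The groups overlapped, and the log2 fold change of -0.12 (SE 0.11, edgeR adjusted p = 0.927) was 0.02 without control library 1. PSMB10, the counterpart of PSMB7, had 78.7, 101 and 96.8 CPM in miR-125a-5p libraries against 91.9, 90.7 and 88.8 CPM in control libraries, so the control libraries lay inside the range of the miR-125a-5p ones (log2 fold change 0.03, SE 0.11). PSME1 and PSME2, which form the interferon-inducible activator ring, averaged 279 ± 21.6 and 251 ± 6.51 CPM in miR-125a-5p libraries, against 296 ± 9.83 and 256 ± 29.5 CPM in control libraries (log2 fold changes -0.09 and -0.03). PSME2 stood at 0.068 once control library 1 was left out, and the log2 fold change of PSME1 was -0.026 without miR-125a-5p library 3. The median of the 5 genes was 0.02 without control library 1, the library in which PSMB8, PSMB9, PSME1 and PSME2 each had their highest level.

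In the cap base, whose ATPases unfold the substrate, 5 of 6 log2 fold changes were positive with a median of 0.066. PSMC5 had 98.3, 131 and 87.6 CPM in miR-125a-5p libraries against 82.9, 97.8 and 97.3 CPM in control libraries (log2 fold change 0.19, SE 0.12, edgeR adjusted p = 0.892). Without miR-125a-5p library 2 the log2 fold change was 0.0032, and without control library 1 it was 0.11. PSMC2 averaged 270 ± 25.5 CPM in miR-125a-5p libraries and 249.3 ± 6.70 CPM in control libraries (log2 fold change 0.12, edgeR adjusted p = 0.917, and 0.054 without miR-125a-5p library 1). The median of the 6 ATPases was -0.019 without miR-125a-5p library 2.

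Of the 11 non-ATPase cap subunits 8 were positive, with a median of 0.071. That median was 0.016 without control library 1, 0.020 without miR-125a-5p library 2 and 0.13 without miR-125a-5p library 3. PSMD1, a large scaffold of the base, had 196 to 202 CPM in the 3 miR-125a-5p libraries and 174 to 178 CPM in the 3 control libraries. The spread within each group was narrow and the groups did not overlap. The means were 199.7 ± 2.80 CPM after the miR-125a-5p mimic and 176 ± 2.06 CPM after the control mimic (SD, n = 3 each), a log2 fold change of 0.18 (SE 0.09, unadjusted p = 0.0567, adjusted p = 0.843 by edgeR). Leaving out a library left it between 0.17 and 0.19. PSMD12, a lid subunit, had 94.0 to 104 CPM in miR-125a-5p and 78.4 to 96.5 CPM in control libraries (log2 fold change 0.16, edgeR adjusted p = 0.897, and 0.074 without control library 1). PSMD14, the enzyme that cuts the ubiquitin chain off the substrate, averaged 85.6 ± 9.14 CPM in miR-125a-5p and 77.4 ± 5.54 CPM in control libraries, and PSMD4, a ubiquitin receptor, 95.5 ± 12.1 and 90.2 ± 4.72 CPM in the same order. PSMD13, a lid subunit, had the lowest log2 fold change of the class at -0.14.

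Assembly factors varied most among themselves, from -0.33 for PSMG3 to 0.41 for PSMD10. PSMD10, known as gankyrin, a chaperone of the cap base, had 28.9, 34.9 and 43.4 CPM in miR-125a-5p libraries and 32.4, 23.3 and 24.7 CPM in control libraries. The lowest miR-125a-5p library lay below control library 1, and the means were 35.7 ± 7.27 CPM in miR-125a-5p libraries and 26.8 ± 4.87 CPM in control libraries (SD, n = 3 each). The log2 fold change of 0.41 (SE 0.16) had an unadjusted p of 0.0176 and an adjusted p of 0.731 by edgeR's quasi-likelihood test, and lay at 0.245 without miR-125a-5p library 3 and at 0.57 without control library 1. PSMG1, which with PSMG2 starts assembly of the alpha ring, had 55.3, 62.6 and 46.0 CPM in miR-125a-5p libraries against 48.6, 41.6 and 45.0 CPM in control libraries (log2 fold change 0.28, SE 0.13, unadjusted p = 0.0385, edgeR adjusted p = 0.832), and its log2 fold change was 0.17 without miR-125a-5p library 2. Its partner PSMG2 had 42.7 ± 4.58 CPM in miR-125a-5p and 45.6 ± 9.14 CPM in control libraries, a log2 fold change of -0.09 (-0.26 without control library 1 and 0.016 without control library 2). The other activators, the nuclear PSME3 and the large PSME4, had log2 fold changes of -0.07 and -0.08, and that of PSME3 was 0.0075 without control library 1. The median of the 7 assembly factors, 0.041, was 0.014 without control library 1 and -0.11 without miR-125a-5p library 1.

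The members were then read by seed match. In the longest 3′ UTR 3 of the 45 tested genes had an 8mer as their best match (6.67%, against 6.003% of 12793 searched genes), 5 a 7mer-m8 (11.1%, against 10.4%), 0 a 7mer-A1 (against 7.97%) and 5 the 6-base core alone (11.1%, against 12.98%). The 3 genes with an 8mer did not share a direction. PSMB8 stood at -0.23 and PSMG3 at -0.33, whereas PSMD9, a chaperone of the cap base, stood at 0.22. All searched genes with an 8mer had a median of -0.065, and those without a 6-base match one of 0.015.

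PSMG3, part of the second alpha-ring assembly pair with PSMG4, had 7.28, 10.8 and 12.7 CPM in miR-125a-5p libraries against 16.2, 9.95 and 12.3 CPM in control libraries. The groups overlapped, with raw counts of 62 to 106 in miR-125a-5p and 84 to 165 in control libraries (log2 fold change -0.33, SE 0.23, edgeR adjusted p = 0.898). The log2 fold change of PSMG3 was -0.12 without control library 1 and -0.13 without miR-125a-5p library 1. PSMD9 had 16.0, 13.04 and 18.6 CPM in miR-125a-5p libraries and 13.3, 13.1 and 14.4 CPM in control libraries (SE 0.19, edgeR adjusted p = 0.919), and its log2 fold change was 0.087 without miR-125a-5p library 3. The 5 genes with a 7mer-m8 were PSMC4, PSMD7, PSMD8, PSMD13 and PSMG4, with a median of 0.048, against -0.028 over all searched genes of that class. The PSMG4 match lies 2423 bases into a 3′ UTR of 4226 bases, whereas the principal transcript of PSMG4 is 838 bases long. PSMG4 had only 27 to 44 raw counts in a library. The 5 with a 6mer were PSMB2, PSMB5, PSMB6, PSMD5 and PSMD14, with a median of 0.098, against 0.011 over all searched genes of that class. The 32 members without a match had a median of 0.060. PSMB5 and PSMB8, which fill the same place in the ring, thus differed in their sites, a 6mer and an 8mer.

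**Figure D4:**
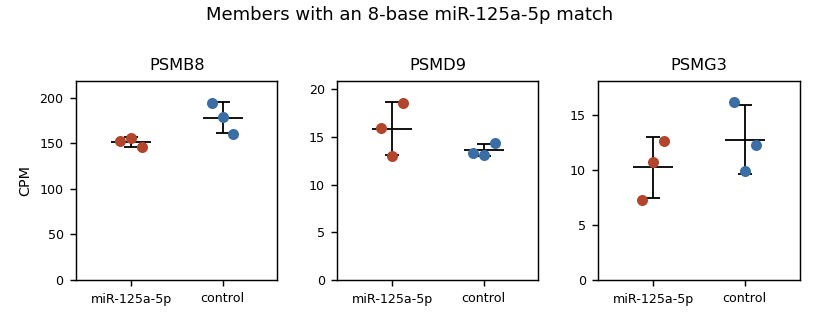
CPM of the 3 proteasome genes with an 8-base match to the miR-125a-5p seed, per library (points) with mean and SD of 3 libraries (bars), miR-125a-5p left and control right, axes from 0. The groups are separate for PSMB8 and overlap for PSMD9 and PSMG3.

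The promoters were searched for motifs known from proteasome and interferon genes, in the 300 bases around each start (250 before and 50 after) from RefSeq on GRCh38.p14. Of the 47 genes 41 had an entry, and PSMA7, PSMB1, PSMB6, PSMB7, PSMD4 and PSMG3 had none. The pattern GAAA, any 2 bases, GAAA on either strand, of the kind that interferon regulatory factors bind, was in 6 of the 41 promoters (14.6%, against 3.65% of 27305 promoters), and 3 of these 6 were immunoproteasome genes, PSMB10, PSME1 and PSME2. The promoters of these 3 are shown because they share the same 10 letters, GAAAGCGAAA, printed in capitals and read as TTTCGCTTTC in PSME1, where it lies on the other strand. They lie at chr16:67936801-67937100 on the minus strand, chr14:24135944-24136243 on the plus strand and chr14:24146561-24146860 on the minus strand.
PSMB10: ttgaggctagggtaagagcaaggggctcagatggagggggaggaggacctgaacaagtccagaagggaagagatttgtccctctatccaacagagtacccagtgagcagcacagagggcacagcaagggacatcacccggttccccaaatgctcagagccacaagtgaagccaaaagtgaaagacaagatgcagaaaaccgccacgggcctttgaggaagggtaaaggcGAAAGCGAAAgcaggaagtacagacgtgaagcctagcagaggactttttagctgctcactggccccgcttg
PSME1: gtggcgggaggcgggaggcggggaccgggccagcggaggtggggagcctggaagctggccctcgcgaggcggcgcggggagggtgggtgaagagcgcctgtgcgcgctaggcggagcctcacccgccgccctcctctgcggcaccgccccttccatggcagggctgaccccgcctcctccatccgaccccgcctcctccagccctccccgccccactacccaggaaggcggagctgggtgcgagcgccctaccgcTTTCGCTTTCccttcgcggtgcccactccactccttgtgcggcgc
PSME2: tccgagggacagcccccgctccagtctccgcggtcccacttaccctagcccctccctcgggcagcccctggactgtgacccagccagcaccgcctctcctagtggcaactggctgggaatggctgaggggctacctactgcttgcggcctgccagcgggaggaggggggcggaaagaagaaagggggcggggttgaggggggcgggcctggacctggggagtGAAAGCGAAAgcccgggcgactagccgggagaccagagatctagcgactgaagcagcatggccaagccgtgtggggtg
The 10 letters lay from -21 to -12 in PSMB10, 6 to 15 in PSME1 and -28 to -19 in PSME2, counted from the start as base 1. They were looked up after the matches had been seen, and occurred in 30 of 27305 promoters (0.11%), the fourth member among them being PSMG4. PSMB8 and PSMB9 had no such pattern in this window. The levels of the 3 genes after the mimic differed from control by log2 fold changes of 0.03, -0.09 and -0.03.

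The core of the antioxidant response element, TGANNNNGC on either strand, to which the proteasome regulator NFE2L1 binds, was in 26 of 41 promoters (63.4%, against 42.1% of all promoters). It was in 5 of 5 constitutive beta promoters with an entry (PSMB2, PSMB3, PSMB4, PSMB5 and PSMB11, the last of which held 0 counts), in 4 of 5 immunoproteasome promoters and in 2 of 6 ATPase promoters. The CCAAT box on either strand, read by NFYA, NFYB and NFYC, was in 19 of 41 (46.3%, against 35.7%), and in 1 of 5 immunoproteasome promoters. The 3 patterns were counted separately and may overlap in a promoter. A match of such short letters is a description of the sequence only.

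Genes of the surrounding pathway were compared in the same fit, and 0 genes of the 4 lists passed in either direction. Of 17 factors that associate with the proteasome 10 were positive, with a median of 0.024. POMP, the chaperone that completes the core, had 124, 160 and 96.9 CPM in miR-125a-5p libraries against 97.2, 110 and 108 CPM in control libraries, and its log2 fold change of 0.28 (SE 0.13, edgeR adjusted p = 0.833) was 0.076 without miR-125a-5p library 2. TXNL1, a thioredoxin-like protein of the cap, had a log2 fold change of 0.26 (SE 0.13, edgeR adjusted p = 0.846), or 0.11 without miR-125a-5p library 1. Of 13 genes that regulate proteasome transcription 8 were positive, with a median of 0.016. NFYB (0.26, SE 0.20) and NGLY1, the glycanase needed to activate NFE2L1 (0.16, SE 0.12), had the smallest p of that list. The log2 fold change of NFYB was 0.15 without miR-125a-5p library 3, and that of NGLY1 was 0.041 without miR-125a-5p library 1. NFE2L1 itself, looked up after its value was seen, averaged 126 ± 5.64 CPM in miR-125a-5p and 132 ± 10.0 CPM in control libraries.

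Ubiquitin genes, the activating enzymes and the VCP unfoldase with its partners had 10 of 12 positive log2 fold changes and a median of 0.084. UBB, a polyubiquitin gene, had 239.5, 264 and 237 CPM in miR-125a-5p libraries, against 177, 211 and 223 CPM in control libraries. All 3 miR-125a-5p libraries lay above all 3 control libraries (log2 fold change 0.28, SE 0.10, unadjusted p = 0.00914, edgeR adjusted p = 0.627). With control library 1 left out, UBB had a log2 fold change of 0.18 (edgeR adjusted p = 0.79). UBXN7, an adaptor of VCP, had a log2 fold change of -0.27 (SE 0.13, edgeR adjusted p = 0.843), or -0.15 without control library 1.

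The list for class I antigen processing, the step that immunoproteasome products feed, lay on the other side: 17 of 20 log2 fold changes were negative and the median was -0.11. In 4 of the 20 every miR-125a-5p library lay below every control library (5.9% of all tested genes), and in 0 above. At an unadjusted edgeR p under 0.05 there were 3 on the lower side (15%, against 3.22% of all tested genes) and 0 on the higher. These genes share the same 6 libraries, so the counts are not independent observations. NLRC5, the transactivator of class I genes, had 98.9, 87.2 and 98.6 CPM in miR-125a-5p libraries against 118, 123 and 105 CPM in control libraries. The groups did not overlap (log2 fold change -0.28, SE 0.10, unadjusted p = 0.0109, edgeR adjusted p = 0.655), and the longest 3′ UTR of NLRC5 holds an 8mer. IRF1, a transcription factor that drives immunoproteasome genes, had 21.0, 22.3 and 22.6 CPM in miR-125a-5p libraries against 28.3, 24.4 and 30.2 CPM in control libraries (log2 fold change -0.33, SE 0.15, edgeR adjusted p = 0.821). Its best match was a 7mer-m8. Among the genes described above from the other lists, TXNL1 (log2 fold change 0.26) had a 7mer-m8 and UBXN7 (-0.27) a 7mer-A1. POMP, NFYB, NGLY1, NFE2L1, UBB and TAP1 had no match. Whether sites went with direction in these lists was not tested. TAP1, the peptide transporter subunit beside PSMB9, was read for its place in the locus and had a log2 fold change of -0.20 (SE 0.09, edgeR adjusted p = 0.833), with groups that overlapped.

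The tested genes outside the proteasome whose log2 CPM followed PSMB8 most closely over the 6 libraries were APOL1 (Pearson r = 0.983), PWWP2A (0.981), PELI1 (0.980), TMT1A (0.980) and CXCL10 (0.979). These are the highest of 14731 genes over only 6 libraries, which differ in treatment, and they describe these libraries. Their log2 fold changes, in that order, were -0.38, -0.061, -0.34, -0.51 and -0.80 (edgeR adjusted p = 0.501, 0.967, 0.843, 0.855 and 0.136). Each of them, like PSMB8, had its highest level in control library 1. APOL1, known as an interferon-induced gene, had 68.4, 71.5 and 59.7 CPM in miR-125a-5p libraries, against 96.4, 87.5 and 75.8 CPM in control libraries. CXCL10, known as such a gene too, had 82.9, 83.9 and 56.5 CPM against 176, 120.5 and 90.9 CPM in the same order. A link to interferon was not tested. Among the proteasome genes PSMD13 (0.802) and PSMB9 (0.775) had the highest r with PSMB8, and PSMB6 the lowest (-0.918).

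**Figure D5:**
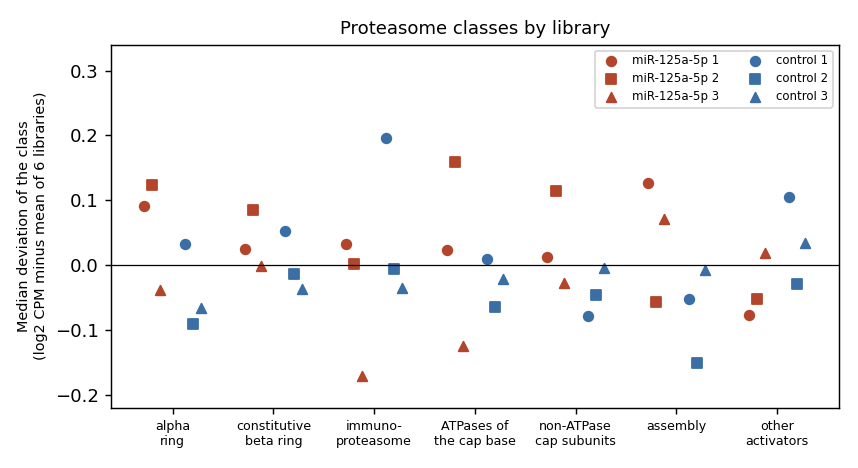
Median deviation of each proteasome class in each library, as log2 CPM minus the gene's mean over the 6 libraries, miR-125a-5p libraries left and control libraries right within a class. Control library 1 is highest for the immunoproteasome (0.20) and miR-125a-5p library 2 for both rings and both cap classes.

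The classes were last compared over the single libraries, as the median deviation from each gene's mean over the 6 libraries on the log2 scale. The immunoproteasome had deviations of 0.03, 0.0018 and -0.17 in miR-125a-5p libraries 1 to 3, against 0.20, -0.0055 and -0.04 in control libraries 1 to 3, so control library 1 and miR-125a-5p library 3 set the range. For the core the deviation was 0.03, 0.09 and -0.03 in miR-125a-5p libraries against 0.04, -0.08 and -0.05 in control libraries. For the cap the deviation was 0.01, 0.12 and -0.08 in miR-125a-5p libraries against -0.05, -0.05 and -0.01 in control libraries, and the groups overlapped in both. Assembly factors had deviations of 0.13, -0.06 and 0.07 in miR-125a-5p libraries, against -0.05, -0.15 and -0.0076 in control libraries, and these groups overlapped too. Over all tested genes the same median lay between 0.0032 and 0.0083 in every library. Differences between libraries of 1 treatment were therefore as large as those between treatments for the core, the cap, the immunoproteasome and the assembly factors.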

How the data were processed

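Gene-level raw counts of all 6 libraries, whole and not normalized, stand in 1 table that the authors deposited, and 0 columns belonged to no library. Build hg19 and the tools TopHat, bcl2fastq and edgeR are named, per the submitters' processing notes. For the counting tool, the annotation and the strand setting, the sources used here give nothing. Of 26347 rows 26204 (99.5%) were named by whole NCBI identifier from a RefSeq gene table on GRCh38.p14. The test was that of edgeR 4.0.16 (R 4.3.3). The function filterByExpr kept 14731 of 21274 genes with any count, with scaling by the trimmed mean of M-values, glmQLFit and glmQLFTest at the package default, and Benjamini-Hochberg adjustment at 0.05. SE is the size of the log2 fold change divided by the square root of F. CPM are given as mean ± SD of 3 libraries. The fit was tested on simulated counts. Log2 CPM used a prior count of 2.

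Lengths, principal transcripts (the longest APPRIS principal transcript) and 3′ UTRs of at least 20 bases were read from GENCODE 29 (GRCh38), a later build than that of the counts. Sites were classed, longest first, as the 8mer (CTCAGGGA), the 7mer-m8 without its last A, the 7mer-A1 without its first C, and the 6mer without both. Genes were picked for description by a rule: members with an unadjusted p under 0.05, the 2 smallest p of each class, the immunoproteasome genes, PSMB5, PSMB6 and PSMB7, and the 2 smallest p of each related list. For some of these genes only part of the statistics is printed. PSMD9 and PSMG3 (8mer genes), PSMD13, PSMD14, PSMD4, PSMG2, NFE2L1, TAP1 and PSMB8-AS1 were named outside that rule, after their values were seen. Members, lists and tests were chosen with earlier results of these data known. Alternatives covered scaling, filters, DESeq2 1.42.0, limma 3.58.1 voom, the likelihood ratio test, legacy = FALSE, the replicate number as a block and each library left out.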

Additional observations from a re-analysis of the deposited data

How the results depend on the processing

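The numbers of members called, 0 higher and 0 lower, were the same under all alternatives run: other scaling, other filters, DESeq2, limma voom, edgeR's likelihood ratio test, legacy = FALSE, a threshold of 0.1, the longer symbols and each library left out. The replicate numbers did not pair the libraries (correlations of same-numbered deviations 0.056, 0.014 and -0.016, and 2 of 6 libraries correlated best with their own number). With the replicate block the calls were 0 and 0, and PSMB8 had a log2 fold change of -0.23. With genes of at least 5 CPM, which drops PSMG4, the assembly median was 0.13 in place of 0.041. With 1 library left out the median log2 fold change ran from 0.024 to 0.13 for the alpha ring, -0.11 to 0.11 for assembly and 0.018 to 0.15 for the constitutive beta ring. It ran from -0.13 to 0.019 for the immunoproteasome, from -0.019 to 0.13 for the ATPases, from 0.016 to 0.13 for the non-ATPase subunits and from -0.11 to -0.041 for the other activators. Single genes were examined with 1 library left out for 36 genes only, and a change of sign in the other members was not examined. Of the 36, these changed sign: PSMB10 (-0.046 to 0.13), PSMB5 (-0.061 to 0.20), PSMB7 (-0.061 to 0.044), PSMB9 (-0.21 to 0.019), PSMD4 (-0.0020 to 0.18), PSMG2 (-0.26 to 0.016), PSME2 (-0.083 to 0.068) and PSME3 (-0.12 to 0.0075). The difference of the log2 ratio of PSMB8 to PSMB5, -0.35, ran from -0.43 to -0.24. That of PSMB9 to PSMB6, -0.31, ran from -0.53 to -0.065, and that of PSMB10 to PSMB7, 0.030, from -0.069 to 0.15. Median levels per length (CPM per kilobase) depend on the length used. By the longest transcript they were 35.8 for the ATPases, 46.3 for the alpha ring, 8.28 for assembly, 57.6 for the constitutive beta ring, 92.0 for the immunoproteasome, 28.9 for the non-ATPase subunits and 34.7 for the other activators. By the principal transcript, chosen after seeing the data, they were 41.9, 70.5, 8.28, 66.1, 180.5, 32.8 and 97.6 in the same order. The union of exons is never shorter than a transcript, so values by it are lower by construction. Any annotated 3′ UTR in place of the longest gave the same 13 members with a match.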
